A study of Mus musculus with 24 samples.

Results

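The 3 ZNF668 tumours whose source name reads TUMOR with no type (called untyped here) were set against the 3 ZNF668 tumours labelled ependymoma, in a series of 24 mouse brain tumours profiled on 1 array each. The members were chosen from the class gene and the source name in the labels, and the brightest probe set carrying 1 symbol, by its mean over the 24 arrays, stood for each gene. All tumours carry the labels brain and cortex, and per the design text they grew from cells expressing RAB3A (6 tumours), BC74C (9) or ZNF668 (9). The other ZNF668 tumours are 2 labelled HGG, a label given without its full name, and 1 labelled UNKNOWN; 2 untyped and 2 ependymoma RAB3A tumours serve as a second comparison.

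Values are the deposited log2 expression values, and a difference is the untyped mean minus the mean of the group it is set against. The sources used here give no strain, age, sex, promoter, clone or vector, and no unmodified brain or host control is among the samples. Whether each tumour is from its own animal is not stated, and the p-values cover the spread between these samples alone. Replicate numbers follow the order of deposit. The titles of untyped tumours 1 and 2 and of all 3 ependymomas begin with elw, and the title of untyped tumour 3 begins with mmr; what the prefixes mark is not stated. The array medians lay between 4.98 and 5.19.

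Ependymomas are glial tumours that share genes with radial glia, the stem cells that line the embryonic ventricles, and with ependymal cells, whose motile cilia are built under the transcription factor Foxj1. Gliomas of higher grade are known for fast-dividing cells, new vessels and poorly oxygenated areas. Bulk tumour RNA mixes tumour cells with neurons, myelin, microglia and vessels, and in such data fewer cells of a type and less RNA per cell cannot be told apart.

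No gene separated the untyped tumours from the ependymomas after adjustment. In limma, 0 of 13218 genes (0%) had an adjusted p under 0.05, the smallest being 0.819; at an unadjusted p under 0.05 there were 385 genes higher and 388 lower, against 660.9 expected by the threshold alone. Differences had a median standard error of 0.33. Over all genes, 1059 (8.01%) had all 3 untyped tumours above all 3 ependymomas and 1124 (8.5%) had them all below, and the median difference was -0.03. Every gene named below for this comparison failed the adjusted test in this fit. With arrays weighted by their fit to their groups 252 of 13218 genes passed limma. Those weights were 2.17, 6.43 and 0.59 for untyped tumours 1 to 3, and 2.74, 0.69 and 0.71 for the ependymomas. Among the genes passing were 21 of the 24 named as of smallest p (limma adjusted p between 0.00866 and 0.116 over the 24). The 24 had been picked by their p in these same values, so their passing is no separate evidence.

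Some calls appeared when a tumour was left out. With only elw titles, which leaves untyped tumours 1 and 2 against the 3 ependymomas, 0 genes passed limma, with a smallest adjusted p of 0.06. With untyped tumour 3 left out of the whole fit 3 genes passed, Tnnc2, Abca6 and Cd28 (limma adjusted p between 0.00234 and 0.0195). Tnnc2, a troponin of skeletal muscle, had 6.02, 6.48 and 3.68 in untyped tumours, against 3.84, 3.63 and 3.98 in ependymomas, so untyped tumours 1 and 2 stood apart from the rest. Abca6, a lipid transporter, had 5.87, 5.06 and 3.55 against 3.75, 3.82 and 3.56. With ependymoma 3 left out the orexin gene Hcrt passed (limma adjusted p = 0.0115).

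The untyped tumours differed among themselves. Likeness was measured as Pearson's r across the 13218 genes, each centred on its mean over the 24 tumours, and is given as a description because the points share genes and arrays. Untyped tumours 1 and 2 were nearest to each other, with r = 0.59, and before centring their r of 0.984 was the highest of any pair in the series. Next to both came RAB3A ependymoma 2, at 0.40 for untyped tumour 1 and 0.45 for untyped tumour 2. Untyped tumour 3 had r = 0.00 with untyped tumour 1 and 0.24 with untyped tumour 2. It lay nearest to BC74C ependymoma 6 (0.71), then to ZNF668 HGG 1 (0.69) and ZNF668 HGG 2 (0.68).

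On average the 3 were not close to the ependymomas of their own class gene. Single pairs were closer: untyped tumour 3 had r = 0.33 with ependymoma 3, above its r with either other untyped tumour (at most 0.24). Of all the tumours, the nearest to ependymoma 1 was untyped tumour 2, at 0.20. The mean r over the 9 pairs of an untyped tumour with a ZNF668 ependymoma was -0.02, with single pairs between -0.67 and 0.33. It was 0.28 over the 3 pairs among untyped tumours and 0.28 over the 6 pairs of an untyped tumour with a ZNF668 HGG tumour, which were 0.68 and 0.69 for untyped tumour 3 and between -0.07 and 0.24 for the other two. The ZNF668 ependymomas resembled each other no more, with a mean r of -0.03 over 3 pairs. On the first principal component, which held 40.3% of the variance, the untyped tumours stood at 2.65, 17.96 and 79.75, against 2.17, -51.28 and 37.61 for the ependymomas. Untyped tumour 3 was the highest of the 24 tumours in 728 genes and the lowest in 1064; untyped tumour 1 was highest in 220 and lowest in 205, and untyped tumour 2 highest in 199 and lowest in 237.

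**Figure D1:**
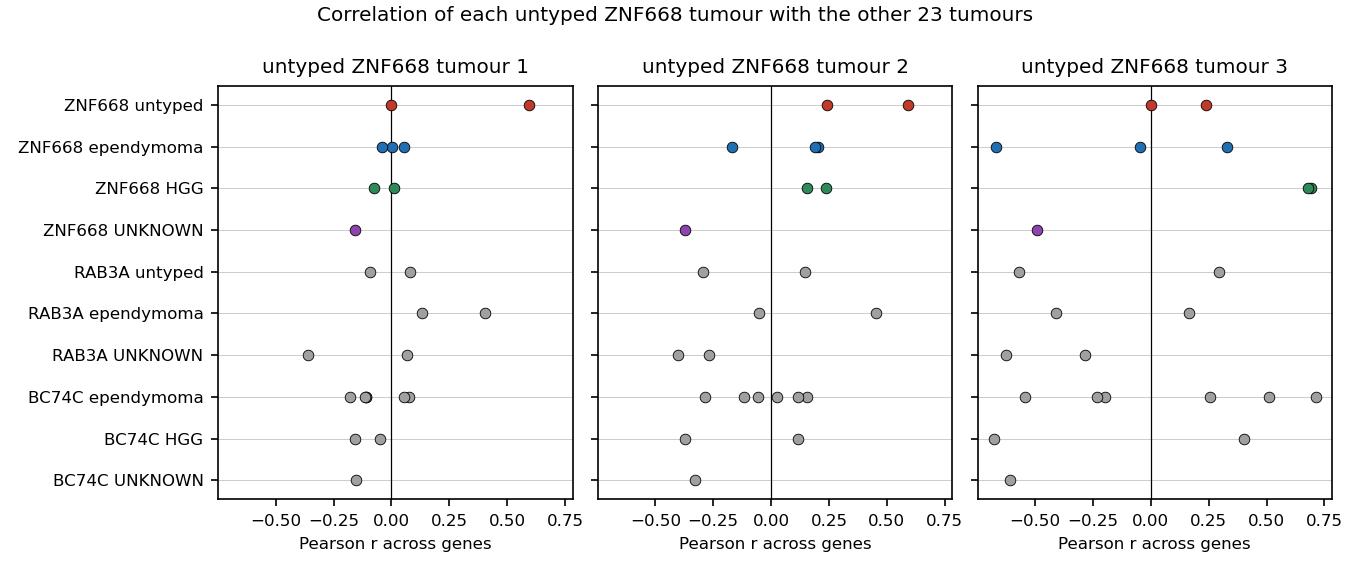
Each point is Pearson's r across 13218 centred genes (x axis, no unit) between 1 untyped ZNF668 tumour (panel) and 1 of the other 23 tumours, with groups down the page. Untyped tumours 1 and 2 meet at 0.59, while untyped tumour 3 lies at 0.69 and 0.68 from the HGG tumours and reaches 0.71 with a BC74C ependymoma.

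Cell cycle genes divided the untyped tumours. The mean of 24 proliferation genes (DNA replication and mitosis) was 5.79, 6.48 and 9.19 in untyped tumours 1 to 3, against 7.68, 5.67 and 8.22 in the ependymomas and 9.01 and 9.46 in the HGG tumours. Untyped tumour 3 was thus at the level of the HGG tumours and ranked 2 of 24, and the other two ranked 19 and 17. In untyped tumour 3 all 24 genes were among the 5 highest of the 24 tumours, and in untyped tumour 1 18 of 24 were among the 5 lowest. Mki67, a marker of cycling cells, had 6.27, 6.97 and 10.39 in untyped tumours, against 8.56, 5.49 and 9.03 in ependymomas. Top2a, the topoisomerase that untangles DNA before division, had 5.81, 7.16 and 10.25 in untyped tumours, against 8.65, 5.97 and 9.32 in ependymomas. In both genes the groups overlapped, with untyped tumour 3 above all 3 ependymomas.

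As groups the untyped tumours and ependymomas were not separated by the list: 10 of 24 genes were higher and 14 lower, 0 passed, and the median difference was -0.09. That median turns on single tumours: without untyped tumour 3, 1 gene was higher, 23 were lower and the median was -1.21. It was -0.91 without ependymoma 2, and between 0.18 and 0.62 without any 1 of the other 4 tumours. Against the HGG tumours 0 of 24 were higher and the median was -2.21, again with 0 passing.

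Promoters of the 4 proliferation genes with the widest gap between untyped tumour 3 and the mean of untyped tumours 1 and 2, among those with a promoter used here, are shown because these genes were all highest in untyped tumour 3 among the untyped tumours. Bub1 and Aurka, kinases of the mitotic spindle, had 4.15 and 4.36 in untyped tumour 1, 5.16 and 4.94 in untyped tumour 2, and 8.98 and 8.57 in untyped tumour 3. The sequences are the 250 bases before the gene's first listed start in RefSeq (build GRCm38.p6), read 5′ to 3′ on the gene's strand. Capitals mark CCAAT, the box bound by the factor NF-Y, and TTTGAA, the core of the cell cycle homology region found in many G2 and mitosis genes, each on either strand.
Bub1, chr2:127831860-127832109, minus strand: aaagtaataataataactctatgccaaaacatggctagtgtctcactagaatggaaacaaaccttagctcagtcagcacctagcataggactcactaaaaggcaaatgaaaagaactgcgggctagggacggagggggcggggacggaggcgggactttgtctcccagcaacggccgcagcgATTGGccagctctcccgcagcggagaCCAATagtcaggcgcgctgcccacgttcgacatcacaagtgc
Aurka, chr2:172370571-172370820, minus strand: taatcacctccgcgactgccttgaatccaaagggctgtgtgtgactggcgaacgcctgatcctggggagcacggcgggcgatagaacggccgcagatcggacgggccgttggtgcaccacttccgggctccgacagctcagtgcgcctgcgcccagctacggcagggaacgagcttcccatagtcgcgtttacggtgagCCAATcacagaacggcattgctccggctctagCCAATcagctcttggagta
Mki67, chr7:135716380-135716629, minus strand: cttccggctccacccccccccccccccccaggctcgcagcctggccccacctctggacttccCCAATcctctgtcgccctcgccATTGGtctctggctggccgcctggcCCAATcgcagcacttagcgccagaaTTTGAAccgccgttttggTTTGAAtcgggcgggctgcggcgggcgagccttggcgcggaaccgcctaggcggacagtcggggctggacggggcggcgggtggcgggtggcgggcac
Top2a, chr11:99024190-99024439, minus strand: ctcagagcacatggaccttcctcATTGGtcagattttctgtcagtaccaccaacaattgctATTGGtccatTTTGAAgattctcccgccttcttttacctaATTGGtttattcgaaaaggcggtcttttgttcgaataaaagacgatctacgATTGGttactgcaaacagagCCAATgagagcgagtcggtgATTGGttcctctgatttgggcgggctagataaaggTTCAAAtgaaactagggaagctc
Bub1 held CCAAT at 2 places and TTTGAA at 0, and Aurka likewise held 2 and 0. Mki67 held CCAAT at 3 places and TTTGAA at 2, and Top2a held 6 and 2. Among 21 list members with such a window, 20 (95.2%) held CCAAT and 6 (28.6%) held TTTGAA, compared with 34.5% and 16.3% of 27025 mouse promoters of the same length. A match describes the letters only and was not tied to the values.

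Transcripts of mature neurons, which make up the tissue around a tumour or within it, ran the other way in untyped tumour 3. The list mean was 8.45, 8.12 and 4.58 in untyped tumours, against 8.62, 9.85 and 7.54 in ependymomas and 6.44 and 6.93 in HGG tumours; 4.58 was the lowest of the 24. Of 18 neuron genes 15 had their lowest value of the series in untyped tumour 3. Nefl, the light neurofilament chain, had 9.50, 9.26 and 3.05 in untyped tumours, against 10.34, 11.03 and 8.95 in ependymomas, and Rbfox3, the nuclear neuron marker NeuN, had 10.41, 9.69 and 4.47, against 9.93, 11.11 and 8.30. Nefm, the medium chain, had 9.28, 8.90 and 3.61 against 10.92, 10.16 and 8.52. Untyped tumours 1 and 2 thus lay nearer to the ependymomas in these genes, and their values overlapped in all 3.

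All 18 neuron genes had a lower mean in untyped tumours than in ependymomas, with a median difference of -1.53; 0 passed, and in 0 of 18 did the groups separate. The extremes by moderated t were Nefl at -2.84 ± 1.40 (SE, limma unadjusted p = 0.0596, adjusted 0.819) and Gad2, a GABA-synthesising enzyme, at -0.63 ± 1.46 (unadjusted p = 0.671, limma). Without untyped tumour 3 the median was -0.36, with 14 genes lower and 4 higher, and without ependymoma 2 it was -0.97.

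**Figure D2:**
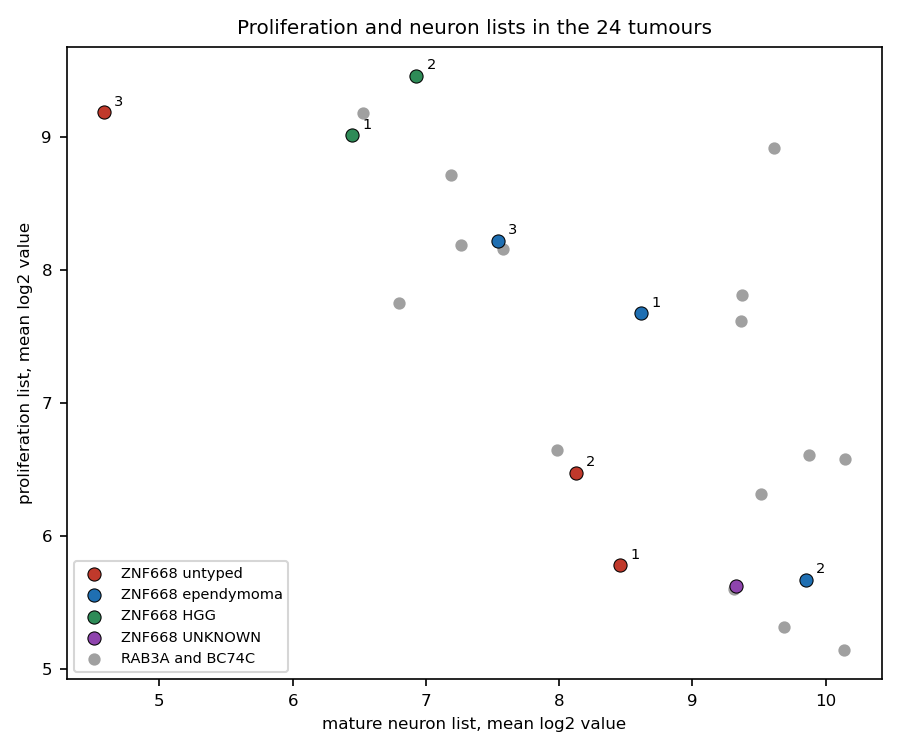
Each point is 1 of the 24 tumours, with the mean log2 value of the mature neuron list on the x axis and of the proliferation list on the y axis; numbers are replicate numbers. Untyped tumour 3 sits at the upper left end (4.58 and 9.19), and untyped tumours 1 and 2 sit at low proliferation (5.79 and 6.48).

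Myelin genes were lower in the untyped tumours, and here untyped tumours 1 and 2 took part. The mature oligodendrocyte list averaged 7.78, 7.36 and 5.71 in untyped tumours, against 8.37, 8.56 and 8.55 in ependymomas, so the list means of the groups did not overlap. Mbp, myelin basic protein, had 11.92, 11.10 and 6.80 in untyped tumours, against 12.15, 12.58 and 12.56 in ependymomas, a difference of -2.49 ± 1.30 (SE, limma unadjusted p = 0.0731, adjusted 0.819). Enpp6, made by oligodendrocytes as they begin to myelinate, had 4.95, 5.65 and 6.49 against 6.92, 7.07 and 9.32. Ugt8a, which makes the myelin lipid galactosylceramide, had 7.69, 8.17 and 8.35 against 9.16, 8.80 and 9.43. Aspa, the enzyme that splits N-acetylaspartate, was the exception, with 8.39, 6.84 and 8.32 against 7.76, 8.12 and 7.62.

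Of 13 myelin genes 12 had a lower mean and 8 had all untyped tumours below all ependymomas, where 8.5% of all genes did so; the median difference was -1.57 and 0 passed. Without untyped tumour 3 all 13 were lower with a median of -0.94. Of 11 oligodendrocyte progenitor genes 7 had a higher mean, with a median of 0.16 that was 0.04 without untyped tumour 3, 0.08 without untyped tumour 1, -0.31 without ependymoma 2 and 0.51 without ependymoma 3. Among them Sox10, a factor of the whole oligodendrocyte lineage, had 8.0, 7.50 and 6.91 in untyped tumours, against 8.29, 8.67 and 8.95 in ependymomas. Pdgfra, the growth factor receptor of progenitors, had 5.64, 5.29 and 5.52 against 4.24, 4.66 and 4.78. Olig2, shared by progenitors and gliomas, had 11.41, 10.88 and 11.50 against 11.03, 10.18 and 12.10 and did not separate the groups.

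Microglial genes were mostly lower as well. The list averaged 8.41, 8.41 and 7.72 in untyped tumours, against 8.40, 8.32 and 9.14 in ependymomas, and 16 of 19 genes had a lower mean, with a median difference of -0.62 and 0 passing. Without ependymoma 3 the median was -0.25, and without untyped tumour 3 it was -0.41. In 6 of 19 the untyped tumours were all below (8.5% of all genes). Tmem119, a marker of resident microglia, had 7.17, 7.53 and 6.38 in untyped tumours, against 8.34, 8.27 and 9.74 in ependymomas, a difference of -1.76 ± 0.54 (SE, limma unadjusted p = 0.00504, adjusted 0.819). C1qb, a complement subunit made by microglia, had 10.16, 10.22 and 9.29 against 10.54, 10.90 and 11.15. Lyz2, the lysozyme of myeloid cells, and Cd14, the endotoxin co-receptor, overlapped, with Cd14 at 8.56, 9.87 and 8.58 in untyped tumours against 8.74, 8.35 and 8.54 in ependymomas.

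The list mean of radial glia genes was slightly higher in the untyped tumours and varied little among them. It was 8.83, 8.95 and 9.18, against 8.83, 8.34 and 8.87 in ependymomas and 9.33 and 8.89 in HGG tumours. Single members varied more, such as Tnc, at 8.47, 9.32 and 10.21 in untyped tumours. Of 17 genes 13 had a higher mean, 7 had all untyped tumours above all ependymomas, against 8.01% of all genes, and 0 passed; the median was 0.39, and between 0.20 (without ependymoma 2) and 0.57 (without ependymoma 3) with a tumour left out. Pax6, a factor of cortical radial glia, had 8.41, 8.40 and 8.24 in untyped tumours, against 7.11, 7.59 and 7.88 in ependymomas (difference 0.82 ± 0.33 SE, limma unadjusted p = 0.0253, adjusted 0.819), while its dimmer probe sets gave between -0.03 and 0.91. Notch1, the receptor that holds neural stem cells back from differentiation, had 10.67, 10.47 and 10.53 against 10.05, 9.39 and 10.44, and those 3 untyped values were the 3 highest of the 24 tumours. Sox2, a stem cell factor, had 11.19, 11.11 and 11.15 against 10.46, 10.62 and 10.78. At the other end Hopx and Id4, both known from neural stem cells, had differences of -0.40 and -0.47 and overlapping groups.

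Cilia genes, which mark ependymal differentiation, overlapped between the groups and lay in the middle of the series in untyped tumours, at ranks 10, 13 and 9 of 24. The list averaged 4.69, 4.65 and 4.72 in untyped tumours, against 4.42, 4.78 and 4.39 in ependymomas, with all 24 tumours between 4.18 and 5.49. These means and ranks cover the 29 genes measured, of which 21 were bright enough to be tested. Foxj1 had 7.58, 6.36 and 7.07 in untyped tumours, against 6.23, 5.47 and 6.26 in ependymomas, a difference of 1.01 ± 0.72 (SE, limma unadjusted p = 0.178, adjusted 0.819). Enkur, a protein of the ciliary axoneme, had 6.90, 6.52 and 6.52 against 4.96, 5.39 and 5.27. In these genes the untyped tumours, not those labelled ependymoma, held the higher values, and across the list 13 of 21 were higher, 5 were all above (8.01% of all genes), and the median was 0.16, or 0.08 to 0.25 with a tumour left out (lowest without ependymoma 3 or untyped tumour 1, highest without ependymoma 2). Foxj1 and Enkur were picked after their values were seen.

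Matrix and wound-type genes of the mesenchymal glioma list were higher, with list means of 9.0, 9.35 and 9.30 in untyped tumours, against 8.66, 8.06 and 9.01 in ependymomas. Of 13 genes 10 had a higher mean, 3 had no overlap (8.01% of all genes), 0 passed, and the median was 0.67, or 0.49 without untyped tumour 3. Fn1, the matrix protein fibronectin, had 10.61, 10.43 and 10.69 in untyped tumours, against 9.05, 9.38 and 9.74 in ependymomas and 10.71 and 10.60 in HGG tumours; its difference from ependymomas was 1.19 ± 0.52 (SE, limma unadjusted p = 0.0373, adjusted 0.819). Timp1, an inhibitor of matrix proteases, had 9.33, 9.65 and 9.22 against 8.05, 7.72 and 8.12 in ependymomas, and Tgfbi, a matrix protein induced by TGF-beta, had 8.77, 8.86 and 8.80 against 7.69, 7.05 and 7.96. Cebpb and Fosl2, transcription factors of the same programme, overlapped, with differences of -0.03 and -0.12. Of 13 astrocyte genes 7 had a higher mean, with 0 passing and a median of 0.04 that ranged from -0.12 to 0.15 with a tumour left out (lowest without untyped tumour 2, highest without untyped tumour 3).

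The endothelial list, the genes of vessel lining, had means of 6.68, 6.42 and 6.84 in untyped tumours, against 6.24, 6.63 and 6.10 in ependymomas, with 11 of 15 higher, a median of 0.33 and 0 passing. Cldn5, a tight junction protein of the blood-brain barrier, had 8.63, 8.81 and 9.11 in untyped tumours, against 7.96, 8.16 and 5.99 in ependymomas (difference 1.48 ± 0.37 SE, limma unadjusted p = 0.000991, adjusted 0.819). Erg, an endothelial transcription factor, had 4.93, 4.95 and 5.48 against 4.05, 4.49 and 3.75, though its dimmer probe set gave 0.01. Ly6c1, a surface protein of brain endothelium, was on the other side, with 9.89, 9.78 and 7.33 against 10.24, 10.73 and 9.92. Eng, a co-receptor for TGF-beta, overlapped.

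Neuronal progenitor genes split by member: Sox4, a factor of newborn neurons and gliomas, had 12.26, 12.18 and 12.36 in untyped tumours against 11.50, 10.98 and 11.78 in ependymomas, and Sox11 overlapped. The interneuron factor Dlx1 had 4.77, 5.35 and 4.83 against 6.75, 7.54 and 5.64, and Dlx2 had 5.02, 5.16 and 5.09 against 5.31, 5.83 and 6.75. Over the 7 tested the median was -0.87, with 2 higher, 5 lower and 0 passing; it was -0.56 without ependymoma 2 and -0.48 without ependymoma 3. Immediate early genes, which respond within minutes to stimuli and to handling of tissue, had a median of 0.58 with 7 of 11 higher and 0 passing. That median was 0.97 without ependymoma 1, 0.11 without ependymoma 2, 0.29 without ependymoma 3 and 0.26 without untyped tumour 3. Ier2, an early response factor, had 8.80, 8.81 and 9.09 in untyped tumours against 8.32, 7.32 and 8.07 in ependymomas, while Jun, Dusp1 and Fosb overlapped. Genes of hypoxia and glycolysis gave list means of 8.10, 8.21 and 9.94 in untyped tumours, against 8.45, 8.64 and 8.44 in ependymomas. That list was the highest of the 24 in untyped tumour 3 and the lowest in untyped tumour 1, and its median difference of 0.20 was -0.29 without untyped tumour 3, 0.71 without untyped tumour 1, 0.43 without untyped tumour 2 and 0.11 without ependymoma 3.

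**Figure D3:**
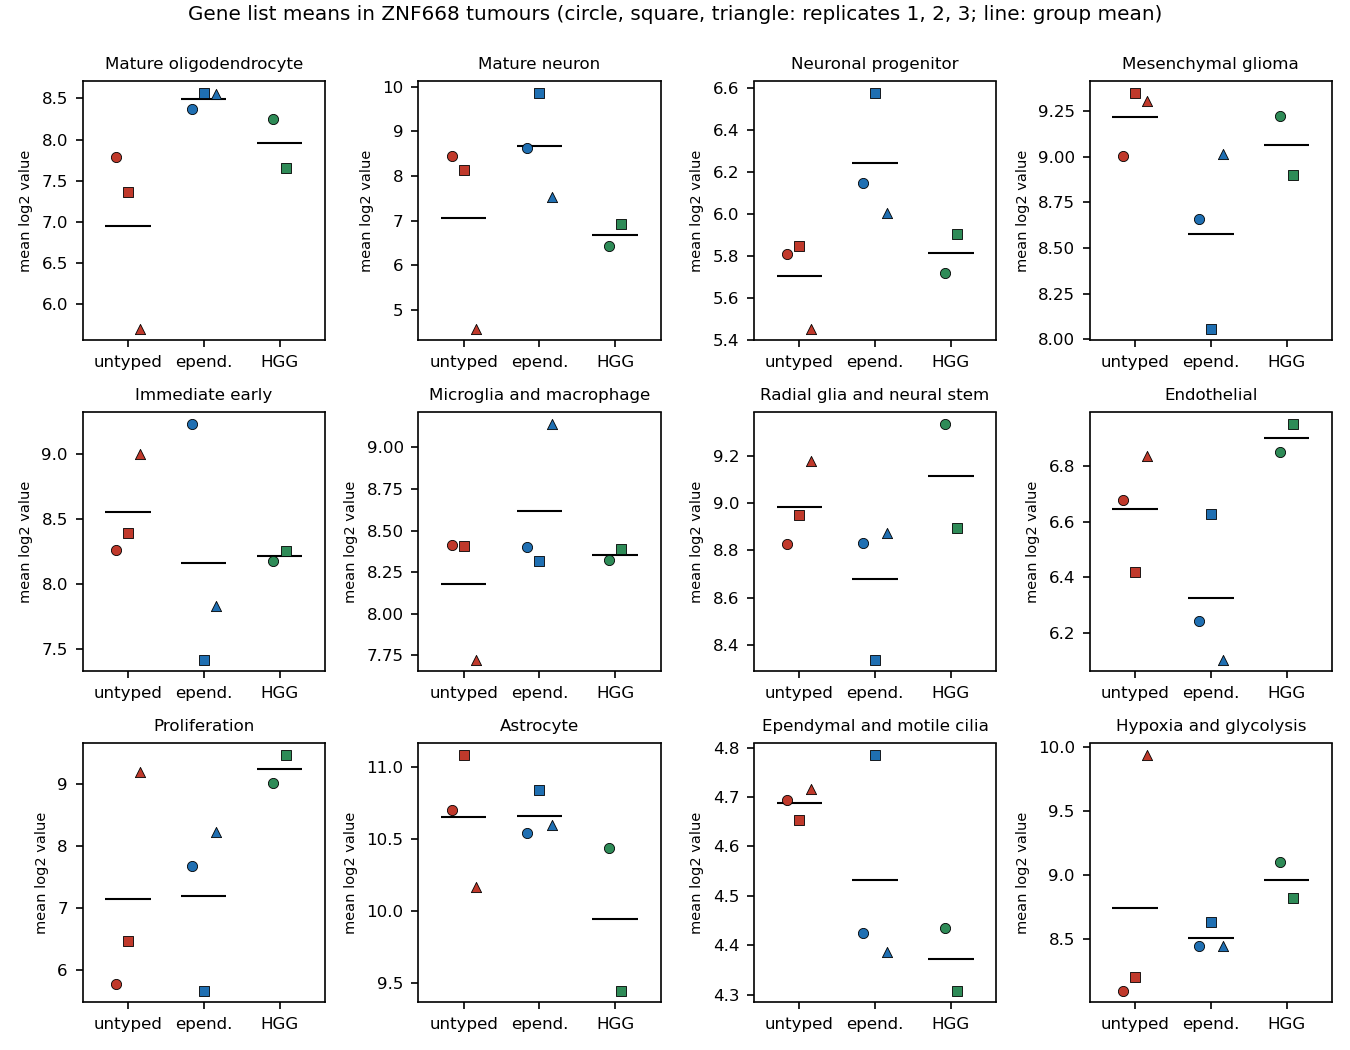
Mean log2 value (y axis, scaled per panel) of 12 gene lists in each ZNF668 tumour, in untyped (n = 3), ependymoma (n = 3) and HGG (n = 2) tumours; lines are group means. Untyped tumour 3 (triangle) stands apart in proliferation (9.19), mature neuron (4.58) and hypoxia (9.94). The 3 untyped tumours lie close together in the list means of radial glia and cilia genes, though single members vary more.

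Among single genes of smallest p, Hmcn1 had the largest difference on the higher side. Hmcn1, which encodes the extracellular matrix protein hemicentin, had 7.43, 6.38 and 6.04 in untyped tumours, against 4.47, 4.39 and 4.01 in ependymomas and 5.48 and 7.65 in HGG tumours. All untyped values lay above all ependymoma values, a difference of 2.32 ± 0.54 (SE, limma unadjusted p = 0.000531, adjusted 0.819). Pon2, an intracellular lactonase, had 10.55, 10.39 and 10.19 in untyped tumours, against 9.36, 9.70 and 9.71 in ependymomas, 0.78 ± 0.20 higher. Xpa and Uvssa, both of nucleotide excision repair, had 8.0, 7.45 and 7.20 against 6.10, 6.6 and 6.43, and 8.96, 8.14 and 8.33 against 6.93, 7.6 and 7.38. Their dimmer probe sets gave smaller differences, 0.13 and 0.02 for Xpa and 0.06 for Uvssa. The other 8 named on this side were Mmp23, Mdrl, Hmgb1, Nfrkb, Dpp8, Qsox1, Haus7 and Cldn5, with differences between 0.57 in Hmgb1 and 2.14 in Dpp8. For Dpp8, a dipeptidyl peptidase, dimmer probe sets gave -0.27, 0.55 and 0.01, so its probe sets disagree.

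On the lower side 2 hypothalamic neuropeptides had the widest gaps. Pmch, the precursor of melanin-concentrating hormone, had 3.06, 6.09 and 2.71 in untyped tumours, against 11.59, 12.28 and 6.68 in ependymomas, a difference of -6.23 ± 1.78 (SE, limma unadjusted p = 0.00274, adjusted 0.819). Hcrt, the orexin precursor, had 4.45, 4.52 and 5.20 against 9.98, 10.84 and 5.05, a difference of -3.90 ± 1.08 (SE, limma unadjusted p = 0.00215, adjusted 0.819). Both were high in ependymomas 1 and 2, while ependymoma 3 was within the untyped range for Hcrt and near it for Pmch. High values were not particular to these tumours. Hcrt and Pmch had 10.94 and 11.93 in the ZNF668 UNKNOWN tumour, 8.62 and 9.09 in RAB3A untyped tumour 2, and 5.63 and 8.61 in RAB3A ependymoma 2. The series medians were 4.79 and 3.94. Nmbr, the neuromedin B receptor, had the smallest p of the genes named for this comparison, with 3.71, 3.89 and 3.67 in untyped tumours, against 4.83, 4.51 and 4.50 in ependymomas (-0.85 ± 0.19 SE, limma unadjusted p = 0.000258, adjusted 0.819). It was dim in the whole series, from 3.67 to 4.83, near the value of 3.76 under which genes were left out. Ago2, the slicing protein of RNA interference, had 8.54, 8.80 and 7.95 against 9.37, 9.27 and 9.05. The remaining 8 were Ly6i, Txlnb, Pdia3, Lman2l, Kcnk10, Ubfd1, Dzip1 and Ssh2, with differences between -1.60 in Ly6i and -0.54 in Ssh2.

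**Figure D4:**
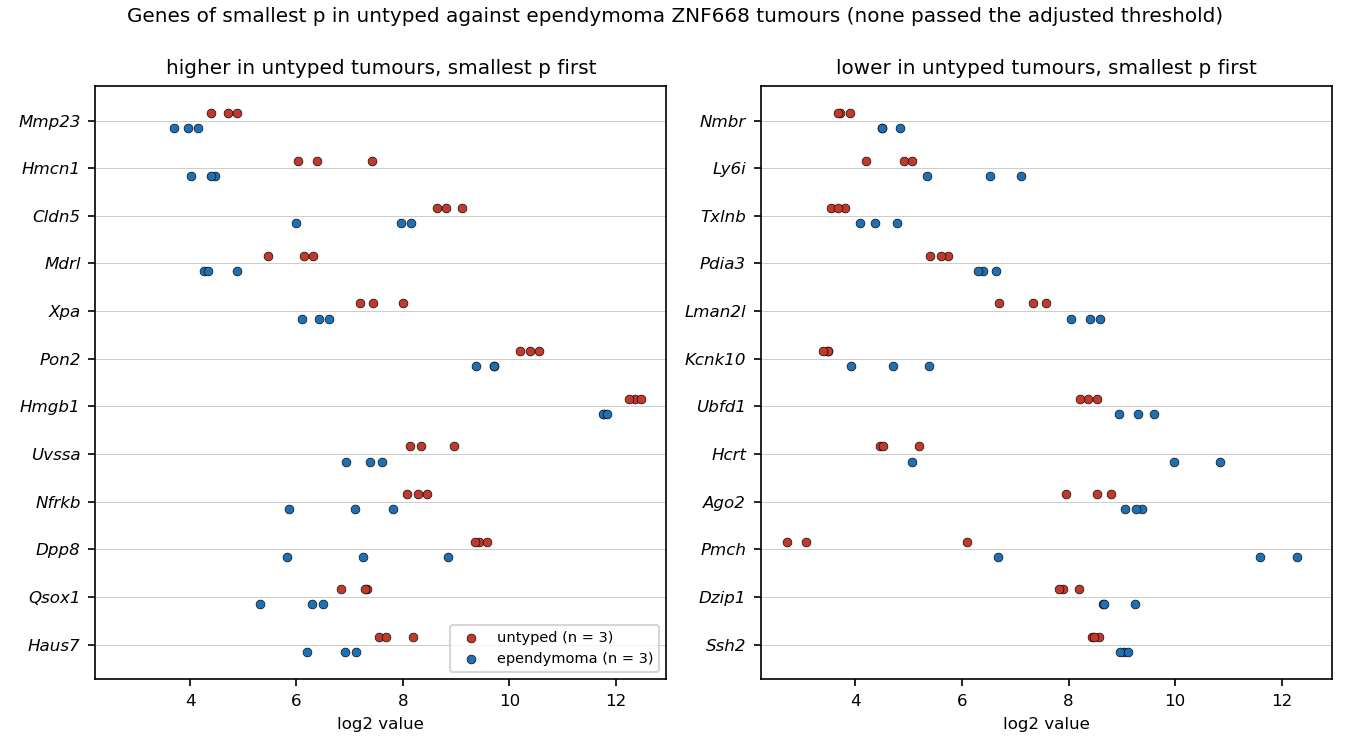
Log2 values (x axis) of the 24 genes of smallest p, 12 higher and 12 lower in untyped tumours (red, n = 3) than in ependymomas (blue, n = 3), 1 point per tumour. The groups do not overlap except in Hcrt, where ependymoma 3 (5.05) lies among the untyped tumours.

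Region markers were picked after these values were seen, and their relation to the cortex label was not tested. They were not scaled to the mature neuron list, whose mean was the lowest of the series in untyped tumour 3. Slc17a7, the vesicular glutamate transporter of cortical neurons, had 4.06, 4.54 and 3.6 in untyped tumours, against 3.61, 7.65 and 3.61 in ependymomas, while the series reached 8.49. The series median was 4.40, so untyped tumour 2 lay just above it and the other two below. The cortical factor Tbr1 had 4.92, 4.53 and 3.37 in untyped tumours, against 3.90, 7.01 and 4.22 in ependymomas, with a series median of 4.37. Cux2, of upper cortical layers, had 6.94, 5.68 and 4.43 against 6.52, 7.81 and 6.12, with a series median of 6.99. Neurod6 and Emx1 lay below their series medians in untyped tumours 1 and 2, and Fezf2 had 3.41 and 3.87 there with a series median of 3.87. Untyped tumour 3 was the lowest of the 24 in Neurod6, Tbr1, Fezf2 and Cux2. Emx1 went the other way in untyped tumour 3, at 5.02, above its series median of 4.88. In untyped tumours 1 and 2 it was only just below, at 4.79 and 4.85. Slc17a6, the transporter of subcortical neurons, had 7.41, 8.12 and 3.18 in untyped tumours, against 10.19, 10.52 and 7.0 in ependymomas. Ependymoma 2 alone of the 6 had Slc17a7 above 5.

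Of the 6 tumours, ependymomas 1 and 2 also had the highest values of the hypothalamic peptides Oxt and Avp. The peptides Trh, Gal, Cartpt and Npvf were measured too and are not described here. Oxt, oxytocin, had 5.39, 6.97 and 6.14 in untyped tumours, against 10.53, 10.60 and 7.86 in ependymomas, with no overlap. Avp, vasopressin, had 6.49, 10.90 and 5.60 against 11.42, 11.98 and 8.03. Untyped tumour 3 held Pomc, the precursor of melanocortins and of corticotropin, at 12.48 and Irs4, an insulin receptor substrate, at 12.39; both were at most 5.24 in untyped tumours 1 and 2, and in ependymomas Pomc had 8.82, 4.73 and 4.27 and Irs4 had 8.50, 8.19 and 4.14. It held Gsx1, a factor of hypothalamic and ventral forebrain progenitors, at 7.23, against 3.10 and 3.40 in the other untyped tumours. The pituitary hormones Gh and Prl were at 4.92 and 6.73 in untyped tumour 3 and at 9.32 and 10.89 in ependymoma 1. The pituitary genes Cga, Tshb and Lhb were measured too and are not described here. The part that the site of dissection had in these values was not tested.

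**Figure D5:**
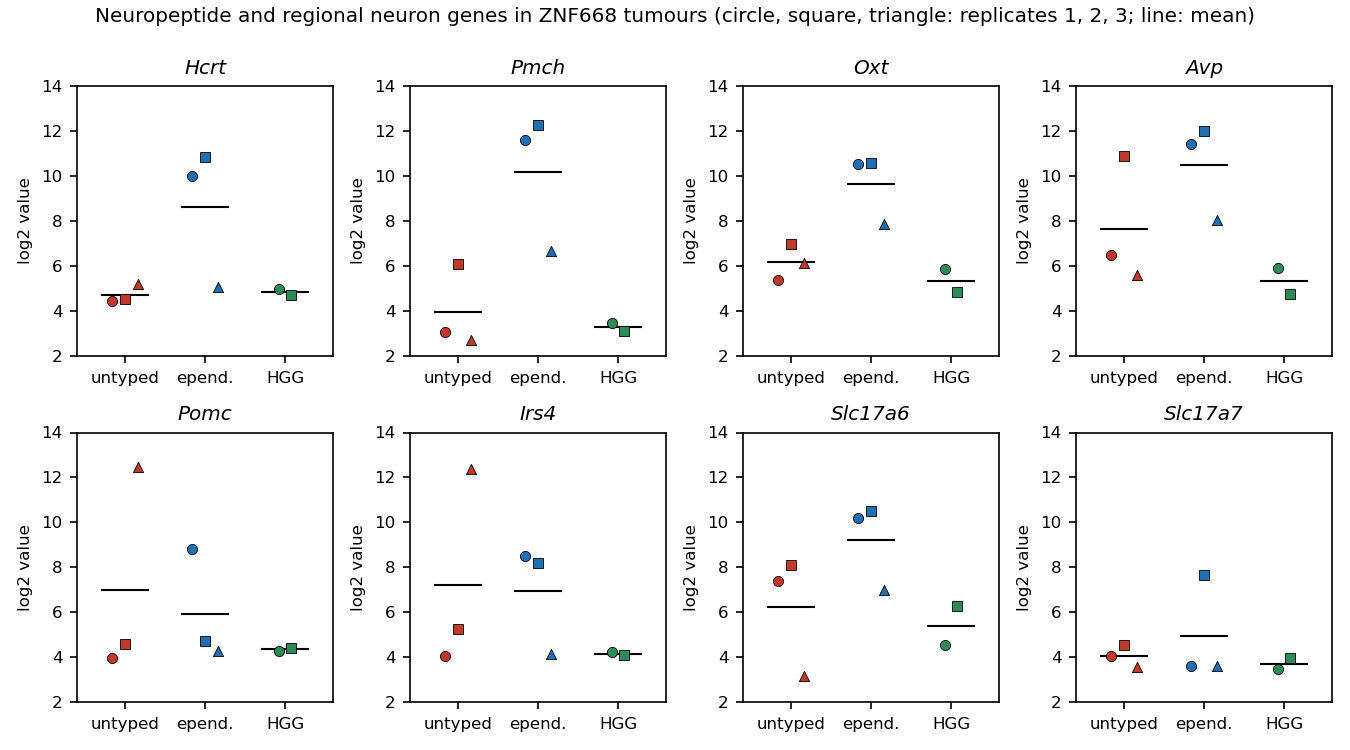
Log2 values (y axis, 2 to 14) of 8 neuropeptide and regional neuron genes in untyped (n = 3), ependymoma (n = 3) and HGG (n = 2) ZNF668 tumours; lines are means. Hcrt, Pmch and Oxt are highest in ependymomas 1 and 2, and Pomc (12.48) and Irs4 (12.39) are highest in untyped tumour 3.

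Each untyped tumour also had genes in which it stood outside the other 23. In untyped tumour 1 these were Wdr19 and Pde6d, genes of cilia trafficking, at 9.57 and 10.62 where the other untyped tumours had 6.99 and 6.49, and 8.88 and 8.77. Cd28, a T cell co-stimulator, had 6.39, 5.38 and 4.01 in untyped tumours against 4.08, 3.95 and 3.92 in ependymomas. The T and NK cell list mean, by contrast, ranked 24, 22 and 18 of 24 in untyped tumours 1 to 3. Col6a3, a matrix collagen, had 10.22, 9.24 and 7.95 against 7.45, 7.51 and 6.93. Clec14a, an endothelial lectin, was also highest in untyped tumour 1, at 8.76. Lowest there were Dctd, Ak4, Foxm1, Sh3bgrl2 and Nop10; Foxm1, a mitotic transcription factor, had 3.57, against a range up to 5.75.

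Untyped tumour 2 was highest in Ch25h, which makes 25-hydroxycholesterol, at 9.68, in Cebpd, an inflammatory transcription factor, at 10.99, in the chemokine Ccl3 at 7.71, and in Col5a3 and Mkln1os. It was lowest in Per3, a clock gene, at 6.14, in the sodium channel subunit Scn4b at 3.46, and in Bag2, Gne and Gnmt. Untyped tumour 3 was highest in Irs4, Pomc, Gsx1, Pdlim3 and Rasef and lowest in Nefl, Nefm, Rbfox3, the calcium sensor Hpcal4 and the neuronal transcript Snhg11. Hpcal4 had 10.77, 10.52 and 3.62 in the 3 tumours.

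The comparison with the ZNF668 HGG tumours shares the untyped tumours with the first. Limma also gave 0 genes of 13218 (0%) there, with a smallest adjusted p of 1. At an unadjusted p under 0.05 there were 353 genes, 147 higher and 206 lower, fewer than the 660.9 expected by the threshold alone. Abcg5, a sterol transporter, had 5.94, 5.58 and 5.48 in untyped tumours, against 3.94 and 4.59 in HGG tumours, a difference of 1.40 ± 0.32 (SE, limma unadjusted p = 0.000406, adjusted 1). Gstm1, a glutathione transferase of astrocytes, had 11.78, 12.20 and 10.96 against 10.62 and 9.83. All 13 astrocyte genes had a higher mean than in HGG tumours, with a median of 0.68. That rests on HGG tumour 2: against HGG tumour 1 alone 8 of 13 were higher, with a median of 0.06. On the lower side Dctd, which feeds thymidine synthesis, had 3.89, 4.86 and 6.42 in untyped tumours against 7.37 and 7.31 in HGG tumours, and Nsl1 and Troap, of kinetochore and spindle, differed by -1.77 and -1.21. Grk4, Zfyve21 and Baz2b on the higher side and Chst5 and Stk32b on the lower completed the 10, and all failed the adjusted test. All 10, picked by their p in the same values, passed with array weights, where limma called 636 of 13218 genes.

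Whether the untyped tumours stand in the same relation to ependymomas when the class gene is RAB3A was tested as a difference of differences. In limma 0 of 13218 genes (0%) passed, with a smallest adjusted p of 0.388. At an unadjusted p under 0.05 there were 576, fewer than the 660.9 expected by the threshold alone. Bdh2, a dehydrogenase of ketone body and iron metabolism, had 7.35, 7.41 and 6.92 in untyped against 6.94, 6.92 and 6.73 in ependymoma ZNF668 tumours. In RAB3A tumours it had 4.96 and 5.52 in untyped against 8.55 and 7.48 in ependymoma, so the differences differed by 3.14 ± 0.55 (SE, limma unadjusted p = 2.93e-05, adjusted 0.388). Pon2, higher in untyped ZNF668 tumours as above, had 9.25 and 9.80 in untyped RAB3A tumours against 10.18 and 10.56 in ependymoma RAB3A tumours. Naalad2, a peptidase, ran the opposite way, with 4.96, 5.69 and 5.27 in untyped against 6.15, 6.51 and 7.32 in ependymoma ZNF668 tumours, and 5.78 and 7.84 in untyped against 4.80 and 5.28 in ependymoma RAB3A tumours. Mrln, Lpar4 and Mgst1 (positive) and Ssh2, Dzip1, Ccdc82 and Tub (negative) were the others, and none passed.

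The class gene's mouse transcript did not mark these tumours. Zfp668 had 5.06, 4.82 and 5.06 in untyped tumours, against 5.0, 4.67 and 5.55 in ependymomas, within the range of 4.54 to 5.76 over the series; an introduced human sequence need not be seen by these probes. Rab3a had 8.60, 8.45 and 6.44 against 9.39, 10.05 and 8.07, and Bcl7c, a chromatin remodelling subunit, had 9.23, 9.38 and 9.01 against 8.59, 8.20 and 8.91. Xist, made from the inactive X chromosome of females, and the Y-linked Eif2s3y were both present in every one of the 6: Xist had 10.74, 10.65 and 8.67 in untyped tumours against 11.06, 11.57 and 10.35 in ependymomas, and Eif2s3y had 9.19, 8.88 and 9.28 against 7.96, 7.53 and 8.59. Kdm5d and Uty, also Y-linked, overlapped between the groups. The part that a mixture of male and female cells had in the other differences was not tested as such. A fit that carried the mean of the Y-linked transcripts as a term called 0 genes (smallest adjusted p = 0.968, limma). The fit without that term had also called 0, so the count cannot show what the term changed.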

How the data were processed

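Total RNA of 24 tumours, extracted with Trizol and biotin-labelled per the labels' protocols, was measured on single-colour Affymetrix arrays. The deposited values are log2 expression values already on a common scale, as read from the values themselves; the authors used Partek 6.6, per the submitters' processing notes, and the background correction and normalization are not given in the sources used here. If arrays were equalised, a shift common to most genes is lost, and signal over background could not be assessed. The number of arrays limits the precision.

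Of 45141 probe sets, 104 controls were left out; 28898 carry 1 gene symbol, 551 several and 15588 none, from the platform annotation, updated through a RefSeq table (28689 matched). Each of 17097 genes was represented by its brightest single-symbol probe set. Genes under the 30th percentile of probe set means (3.76) were left out, leaving 13218. Limma 3.58.1 in R 4.3.3 (lmFit, eBayes with an intensity trend, two-sided, Benjamini-Hochberg over all genes, threshold 0.05) fitted 10 groups of class gene and tumour label over the 24 tumours, with 14 residual degrees of freedom. The fit was tested on simulated data.

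The 22 gene lists (362 genes, 330 measured, 280 tested) were described by counts and medians: mature neuron, proliferation, mature oligodendrocyte, endothelial, astrocyte, cilia, hypoxia, microglia, Hox, radial glia, mesenchymal, T and NK cell, neuronal progenitor, red blood cell, antigen presentation, immediate early, choroid plexus, oligodendrocyte progenitor, NF-kappaB, forebrain identity, pericyte, and receptor tyrosine kinase and Notch. List means and their ranks cover all measured members, while counts and medians cover the tested ones unless said otherwise. The tumours, lists and tests were chosen with earlier results of these data known. Named genes are the 12 of smallest p in each direction (5 for the other comparisons, since none passed), the 2 highest and 2 lowest members by moderated t of the 8 lists farthest from the all-gene median, the 5 farthest genes per untyped tumour in each direction, and the class and sex-linked genes, passing over names from predictions or clones. Genes outside that rule, among them the region markers and further list members, were chosen after their values were seen. Alternatives were the fit's tumours, the title prefix as a block or within elw, the dim-gene filter, the trend, array weights, quantile normalization, probe set choice, likeness measure and each tumour left out. Python 3.11.15 drew the figures (matplotlib 3.10.9, pandas 2.3.3).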

Additional observations from a re-analysis of the deposited data

How the results depend on the processing

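The 3 comparisons called 0 genes in the fit reported above, with limma. Array weights were 6.43 for untyped tumour 2, 0.59 for untyped tumour 3 and 2.74 for ependymoma 1. With them limma called 252 of 13218 genes for untyped minus ependymoma (132 higher, 120 lower) and 636 for untyped minus HGG. Leaving out a tumour gave 0 to 3 calls for untyped minus ependymoma (3 without untyped tumour 3, 1 without ependymoma 3), 0 to 1 for untyped minus HGG (1 without untyped tumour 3, and Col20a1 without HGG tumour 2), and 0 to 4 for the difference between class genes (4 without RAB3A ependymoma 2, 2 without RAB3A untyped 1, and 1 each without RAB3A ependymoma 1 and RAB3A untyped 2). Where a RAB3A arm or the HGG arm (without 1 HGG tumour, or with elw titles alone) held 1 tumour, it was assumed to vary like the other groups. Tumours with elw titles alone gave 2 calls for untyped minus HGG (Abcg5 and Col20a1) and 2 for the difference between class genes (Bdh2 and Cldn2). With the mean of the mature neuron list or of the Y-linked transcripts as a covariate, both chosen after seeing the data, untyped minus ependymoma had 0 calls. The fit without them had 0 as well, so these counts cannot show what either covariate changed. Of the 8 lists farthest from the all-gene median, the neuronal progenitor median of -0.87 was -0.53 over all measured members and -1.20 to -0.48 with a tumour left out. With a tumour left out the mature neuron median ranged from -2.27 to -0.36, mature oligodendrocyte from -1.91 to -0.94, and immediate early from 0.11 to 0.97. The cause of these shifts was not tested. Of the 24 genes named for the first comparison 0 turned sign. They were picked by their p in these same values. Where the groups do not overlap, leaving out a tumour cannot turn the sign, so that count is no separate evidence. Over 4 alternatives the mean likeness of untyped tumours was 0.18 to 0.37 with each other, -0.02 to 0.06 with ependymomas and 0.24 to 0.33 with HGG tumours. The nearest tumour to untyped tumour 3 was ZNF668 HGG 2 (0.67) with Spearman's rho. No paired analysis was possible because the labels link no untyped tumour to a tumour of another group. With 3 tumours against 3 and a median standard error of 0.33, small differences could not be detected, and untyped tumour 3 differs from the others in title prefix as well as in profile, so the prefix and the tumour cannot be told apart within the untyped group.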

Other observations

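In the lists not described above 0 genes passed. Antigen presentation and interferon genes had a lower mean in untyped tumours in 15 of 16 genes, with a median of -0.38 that was -0.98 without ependymoma 2 and 0.22 without ependymoma 3. The class II genes H2-Eb1 and Cd74 had 6.45, 4.6 and 6.88, and 6.67, 4.59 and 6.20, in untyped tumours, against 7.74, 6.80 and 7.82, and 7.52, 6.58 and 6.83, in ependymomas. Untyped tumour 2 held the lowest values of both in the 6. The chemokine gene Ccl5 had 7.21, 7.52 and 7.20 in untyped tumours, against 10.84, 8.36 and 10.97 in ependymomas. Receptor tyrosine kinase and Notch genes had 11 of 16 higher, with a median of 0.32, or 0.20 to 0.41 with a tumour left out. Among them Erbb3, a neuregulin receptor of the oligodendrocyte lineage, had 5.69, 4.64 and 4.22 in untyped tumours, against 6.13, 6.65 and 7.22 in ependymomas, and Dll1, a Notch ligand, had 8.55, 8.26 and 8.45 against 7.57, 7.26 and 7.89.

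Aqp1, a water channel of choroid plexus and of some gliomas, had 4.67, 4.52 and 7.19 in untyped tumours, against 3.75, 3.5 and 3.24 in ependymomas, while Ttr, the defining choroid plexus transcript, overlapped at 5.39, 7.42 and 3.42 against 6.87, 7.97 and 4.84. Acta2, smooth muscle actin, had 7.84, 6.70 and 9.76 against 6.69, 6.35 and 5.60. The neural adhesion gene L1cam had 7.14, 7.38 and 4.36 in untyped tumours, against 9.14, 10.14 and 6.94 in ependymomas. The medians were -0.10 for NF-kappaB subunits and targets, -0.36 for choroid plexus, 0.19 for pericytes and fibroblasts, -0.12 for T and NK cells, -0.12 for red blood cells, 0.10 for Hox genes and -0.15 for forebrain identity genes, all with 0 members passing; without untyped tumour 3 they were -0.35, -0.19, 0.04, -0.21, 0.23, -0.07 and 0.12 in the same order. Over all leave-outs the NF-kappaB median ranged from -0.38 (without ependymoma 2) to 0.05 (without ependymoma 3), the Hox median up to 0.33 (without ependymoma 3), and the red blood cell median down to -0.76 (without untyped tumour 1). These genes were picked after their values were seen.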
